A study of Mus musculus with 30 samples.

Results

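Cardiac fibroblasts from hearts of 24-month-old mice were compared with those of 12-month-old mice across all genes on chromosomes 1 to 19. Of 52442 such genes in the deposited count table, 15895 had enough reads to be tested, of 16466 tested genes on all chromosomes. All cells were wild-type primary cardiac fibroblasts that had been cultured for 3 days, with no reprogramming factor and no other treatment given in the labels. The 12-month and 24-month groups held 2 libraries each, and libraries of the same kind from 3-month and neonatal hearts (postnatal day 1 to 3, 2 libraries each) were measured alongside. The study asked why fibroblasts of older hearts are hard to turn into cardiomyocyte-like cells. The labels give no strain or sex, do not say whether animals were pooled, and do not say whether the 2 libraries of a group came from separate animals or cultures, so p values measure the spread between these libraries, which may be technical. The 2 columns taken as the 12-month samples carry an age of 13 months in their names, and the sample labels were followed.

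Cardiac fibroblasts are the main stromal cells of the heart. They lay down and remodel the collagen matrix, and they read out injury through cytokines, complement and interferon. Interferons act through transcription factors that bind a short element in the promoters of their target genes. NRF2 is a transcription factor that switches on glutathione and thioredoxin genes under oxidative stress. Senescent cells stop dividing, express inhibitors of cyclin-dependent kinases and secrete cytokines, proteases and IGF binding proteins.

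The 12-month libraries held 17283764 and 19940912 counts and the 24-month libraries 21700917 and 21555853, so that a level of 1 CPM (read counts scaled to a common library size) stood for at least 17.3 counts. All 18 fibroblast markers passed the filter on low counts, with a summed level, carried mostly by collagen genes, decorin and vimentin, of 24300 and 23300 CPM at 12 months and 29100 and 29700 CPM at 24 months. Xist, the RNA of the inactive X chromosome of female cells, was at 0.289 and 0.451 CPM in the 12-month libraries and at 761 and 813 CPM in the 24-month libraries. Genes of the Y chromosome summed to 284 and 281 CPM at 12 months and 92.3 and 93 CPM at 24 months. The 24-month libraries thus held both Xist and Y-linked RNA, while the 12-month libraries, like those of 3 months (Xist at 0.448 and 0.476 CPM), held almost no Xist. In every result that follows and sets the 24-month libraries against those of 12 or 3 months, age and sex cannot be told apart. The neonatal libraries also held Xist (1290 and 1310 CPM), so the same holds where they are set against 12 or 3 months. Y-linked genes summed to 268 and 267 CPM at 3 months, near the 12-month sums. The change also varied with gene length. Among genes with a mean of log2 CPM of at least 3, the median log2 fold change from 12 to 24 months was -0.24 for 44 genes with under 500 bases of exon and 0.02 for 2024 genes with over 8000.

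At 24 months 1708 of the 15895 genes were higher (10.7%) and 1277 were lower (8.03%), 2985 in all (18.8%), in edgeR's quasi-likelihood test at an adjusted p under 0.05. The changes were mostly small. Their median size was 0.32 on the log2 scale, and 708 genes (4.45%) moved by over 1.5-fold, of which 532 rose and 176 fell. For every gene called, both libraries of one age lay above both of the other, which was also true of 28.1% of all tested genes with 24 months above and of 27.7% with 12 months above. The count fell to 1793 without replicate 2 of the 12-month group, and DESeq2 called 706 genes lower in place of 1277. The rises and falls counted in each list below are to be read beside the 10.7% higher and 8.03% lower among all genes. Log2 fold changes (log2FC) are 24 minus 12 months throughout and stand with their standard error, n = 2 libraries per age.

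**Figure D1:**
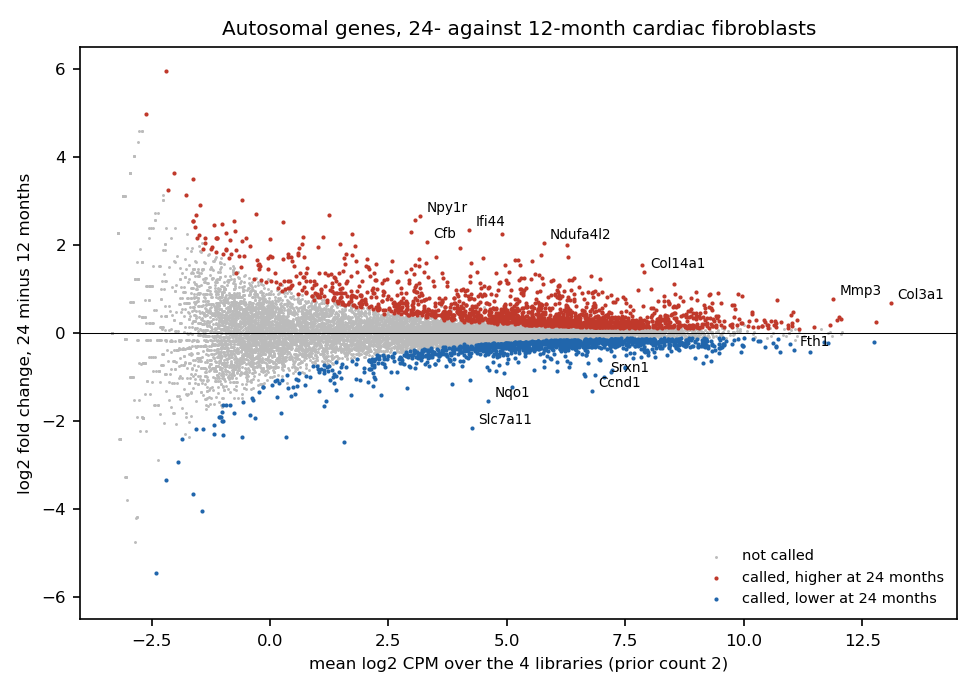
Log2 fold change of each tested autosomal gene (vertical axis, 24 minus 12 months) against its mean log2 CPM over the 4 libraries (horizontal axis). Red points are the 1708 genes called higher at 24 months, blue points the 1277 called lower and grey points the rest, and the far ends among well expressed genes are Npy1r at 2.66 and Slc7a11 at -2.16.

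The 15 largest rises among well expressed genes included Npy1r, Igfbp5 and Gucy1a1, described here, and the interferon gene Ifi44 and the complement gene Cfb, described with their lists. Npy1r was at 4.53 and 2.69 CPM in the 12-month libraries and 23.1 and 21.9 CPM in the 24-month libraries (log2FC 2.66 ± 0.160, adjusted p = 3.08e-14), and the gene encodes a receptor for neuropeptide Y. Igfbp5 was at 3.72 and 2.98 CPM in the 12-month libraries and 19.6 and 20 CPM in the 24-month libraries (log2FC 2.57 ± 0.140, adjusted p = 3.26e-15), and its product binds insulin-like growth factors. Gucy1a1, which encodes a subunit of the soluble guanylate cyclase that senses nitric oxide, was at 14.8 and 12.5 CPM in the 12-month libraries and 57.8 and 72.2 CPM in the 24-month libraries (log2FC 2.26 ± 0.108, adjusted p = 2.33e-10). In each of the 3 genes the 24-month libraries lay several-fold above the 12-month ones and close to each other. At 3 months Npy1r was at 2.16 and 2.3 CPM, as low as at 12 months or lower. By contrast, Igfbp5 was at 32.1 and 33.1 CPM and Gucy1a1 at 77.9 and 83.9 CPM at 3 months, each above both older ages. The other rises among the 15 largest included Cyp7b1, an oxysterol hydroxylase (log2FC 1.93 ± 0.109), Cpxm2, a carboxypeptidase-like protein (log2FC 1.73 ± 0.143), and Lgi2 (log2FC 1.63 ± 0.103). Olfr1033 (log2FC 1.66 ± 0.080) and Gvin-ps7 (log2FC 1.70 ± 0.106) were also among them, but the strand setting of the counting is not stated, so reads of a gene that overlaps the first cannot be told apart, and the second is a pseudogene of a family of near-identical copies, so their values are uncertain.

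The interferon program was higher at 24 months in nearly all of its genes. Of 34 interferon-stimulated genes tested, 30 rose, 24 of them by over 1.5-fold, and 1 fell (against 10.7% and 8.03% of all genes), with a median log2FC of 0.77 against -0.002 over all genes tested. Their summed level was 1300 and 1450 CPM at 12 months and 2250 and 2190 CPM at 24 months. Ifi44 was at 6.02 and 10.4 CPM in the 12-month libraries and 43.4 and 41.1 CPM in the 24-month libraries (log2FC 2.34 ± 0.171, adjusted p = 1.87e-06), with the 24-month libraries far above. Isg15 was at 24.9 and 28.5 CPM in the 12-month libraries and 64.6 and 63.5 CPM in the 24-month libraries (log2FC 1.26 ± 0.072, adjusted p = 7.71e-15), and the gene makes a ubiquitin-like modifier. Irf7, which encodes a transcription factor that amplifies the interferon response, was at 28.6 and 32.2 CPM in the 12-month libraries and 75.7 and 79.5 CPM in the 24-month libraries (log2FC 1.35 ± 0.071, adjusted p = 1.77e-15). Both libraries of 24 months lay above both of 12 months in 31 of the 34 genes, against 28.1% of all tested genes. Genes for sensors of viral nucleic acids were among those that rose, including Oas2 (log2FC 1.40 ± 0.081), Oas1a (log2FC 1.14 ± 0.107), Zbp1 (log2FC 1.21 ± 0.062), Ifih1 (log2FC 0.61 ± 0.062) and Ddx58 (log2FC 0.41 ± 0.048). Stat2 (0.64 ± 0.050) and Irf9 (0.29 ± 0.066), which carry the interferon signal to the nucleus, rose as well. Ifit2 (0.08 ± 0.069, adjusted p = 0.482), Mx1 (0.16 ± 0.600, adjusted p = 0.903) and Rsad2 (0.53 ± 0.328, adjusted p = 0.381) did not pass the test. Ifi27 was the one that fell, from 60.6 and 66.6 CPM to 34.8 and 36.8 CPM (log2FC -0.83 ± 0.072), while its relative Ifi27l2a rose (log2FC 1.66 ± 0.087). In bulk libraries fewer cells of a type and less RNA per cell cannot be told apart.

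By the median of the list, the 24-month level lay between those of 12 and 3 months. Isg15 was at 74.6 and 72.8 CPM and Ifi44 at 49.4 and 42.9 CPM in the 3-month libraries, above the 24-month values for Isg15 and around them for Ifi44. The list had a median log2FC of -1.25 for 12 against 3 months, where 33 genes fell (15.5% of all genes did), and of -0.30 for 24 against 3 months, where 24 fell (9.39% of all genes did). These comparisons share libraries, so the values are given only side by side. In neonatal cells the summed level was 511 and 487 CPM, below every adult library.

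**Figure D2:**
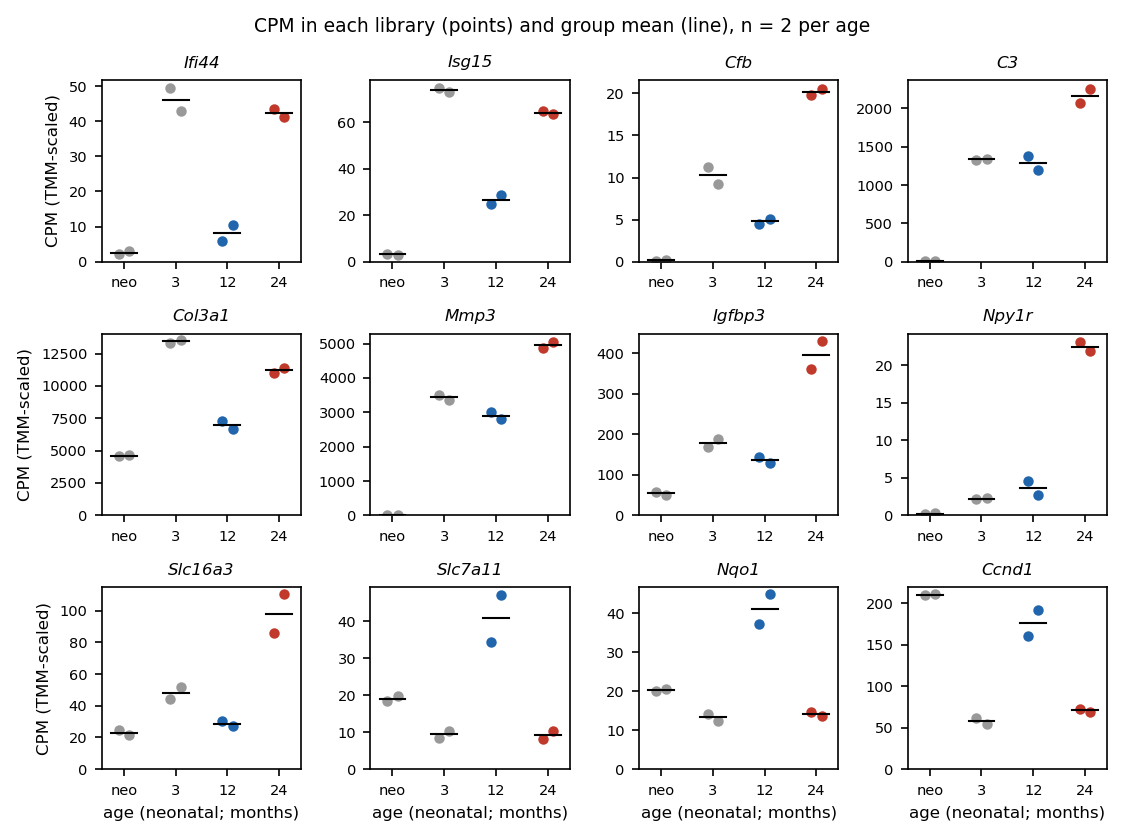
CPM of 12 genes (vertical axes, each from 0) in each library at each age (horizontal axis), with points for libraries and lines for the mean of 2. The 12-month points of Ifi44 and Isg15 lie below both neighbouring ages and those of Slc7a11 and Nqo1 lie above every other age, while Npy1r and Slc16a3 are highest at 24 months.

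The promoters of interferon-stimulated genes were searched for the core of the interferon-stimulated response element. The letters GAAANNGAA, searched on both strands from 250 bases before to 50 after the start, was found in 13 of 23 interferon-stimulated genes with a promoter in the RefSeq table (56.5%), against 2505 of 25748 autosomal genes (9.73%). Isg15, on the minus strand of chromosome 4 (chr4:156200769-156201068, GRCm38.p6), holds 3 overlapping copies that begin 78, 72 and 66 bases before the start. Ifit1, on the plus strand of chromosome 19 (chr19:34640639-34640938), holds 3 copies on the opposite strand at 109, 103 and 84 bases. Ifi44, on the minus strand of chromosome 3 (chr3:151749861-151750160), has a single match that begins 3 bases before the start, on the opposite strand. A match describes letters and is not evidence of binding. Ifit1, a cap-binding antiviral protein (46.6 and 63.6 CPM at 12 months, 130.5 and 125 CPM at 24 months, log2FC 1.20 ± 0.233), was chosen for display after its values were seen. The sequences run 5′ to 3′ along each gene, with matches in capitals:
Isg15: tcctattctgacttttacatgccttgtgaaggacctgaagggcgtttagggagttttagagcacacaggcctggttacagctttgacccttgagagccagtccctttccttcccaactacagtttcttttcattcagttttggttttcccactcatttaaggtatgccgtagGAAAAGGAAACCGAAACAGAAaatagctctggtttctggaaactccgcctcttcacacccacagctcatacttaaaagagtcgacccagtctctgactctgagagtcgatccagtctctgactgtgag
Ifit1: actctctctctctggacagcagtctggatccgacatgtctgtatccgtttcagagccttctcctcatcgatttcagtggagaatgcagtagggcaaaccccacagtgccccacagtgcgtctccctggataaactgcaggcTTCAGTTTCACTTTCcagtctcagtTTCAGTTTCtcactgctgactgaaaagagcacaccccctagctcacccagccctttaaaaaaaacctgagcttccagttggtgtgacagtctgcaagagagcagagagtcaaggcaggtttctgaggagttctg
Ifi44: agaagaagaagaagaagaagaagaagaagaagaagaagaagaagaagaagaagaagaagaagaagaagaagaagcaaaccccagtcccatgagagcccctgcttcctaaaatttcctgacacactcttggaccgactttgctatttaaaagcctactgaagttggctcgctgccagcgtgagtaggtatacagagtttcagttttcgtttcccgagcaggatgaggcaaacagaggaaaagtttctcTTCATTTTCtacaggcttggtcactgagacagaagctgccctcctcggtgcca

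Interferon-inducible GTPases, which attack vacuoles that hold microbes, moved with the list above. Of 15 tested, 13 rose and 0 fell (median log2FC 0.81). The 24-month libraries lay above the 12-month ones in all 15, against 28.1% of all tested genes. Irgm1 was at 64.3 and 65.8 CPM in the 12-month libraries and 115 and 107 CPM in the 24-month libraries (log2FC 0.77 ± 0.055, adjusted p = 1.33e-12). Gbp3 was at 42.3 and 51.2 CPM in the 12-month libraries and 99.1 and 102 CPM in the 24-month libraries (log2FC 1.10 ± 0.074, adjusted p = 8.58e-11). Igtp was at 10.7 and 14.1 CPM in the 12-month libraries and 29.3 and 26.6 CPM in the 24-month libraries (log2FC 1.16 ± 0.110, adjusted p = 1.71e-09). In each of the 3 both 24-month libraries lay above both 12-month ones. Gbp, Tgtp and Gvin genes have near-identical copies, and how reads were shared among copies is not stated, so single members are uncertain. The GTPase list had a median log2FC of -1.2 for 12 against 3 months and -0.31 for 24 against 3 months.

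Genes for antigen presentation on MHC class I rose as a whole. Of 20 tested, 18 rose and 0 fell (median log2FC 0.56). In all 20 the libraries of 24 months lay above those of 12 months, against 28.1% of all tested genes. H2-K1 was at 258 and 237 CPM in the 12-month libraries and 379 and 438 CPM in the 24-month libraries (log2FC 0.72 ± 0.054, adjusted p = 8.22e-10). H2-D1 was at 330.2 and 303 CPM in the 12-month libraries and 459 and 514 CPM in the 24-month libraries (log2FC 0.62 ± 0.050, adjusted p = 1.95e-10). B2m, the light chain that all class I molecules share, was at 782 and 704 CPM in the 12-month libraries and 1033 and 1146 CPM in the 24-month libraries (log2FC 0.55 ± 0.048, adjusted p = 3.03e-09). All 3 rose by a similar factor. The peptide loader Tapbp (log2FC 0.63 ± 0.058), the immunoproteasome subunits Psmb8 (0.58 ± 0.095), Psmb9 (0.60 ± 0.201) and Psmb10 (0.52 ± 0.100) and the transactivator Nlrc5 (0.46 ± 0.086) rose with them, while the peptide transporter genes Tap1 (0.21 ± 0.071) and Tap2 (0.22 ± 0.068) rose least among those called apart from Psme1 (0.18 ± 0.062). The class I and H2-Q genes are similar in sequence, so the split among them is uncertain. The list had a median log2FC of -0.37 for 12 against 3 months and 0.17 for 24 against 3 months.

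**Figure D3:**
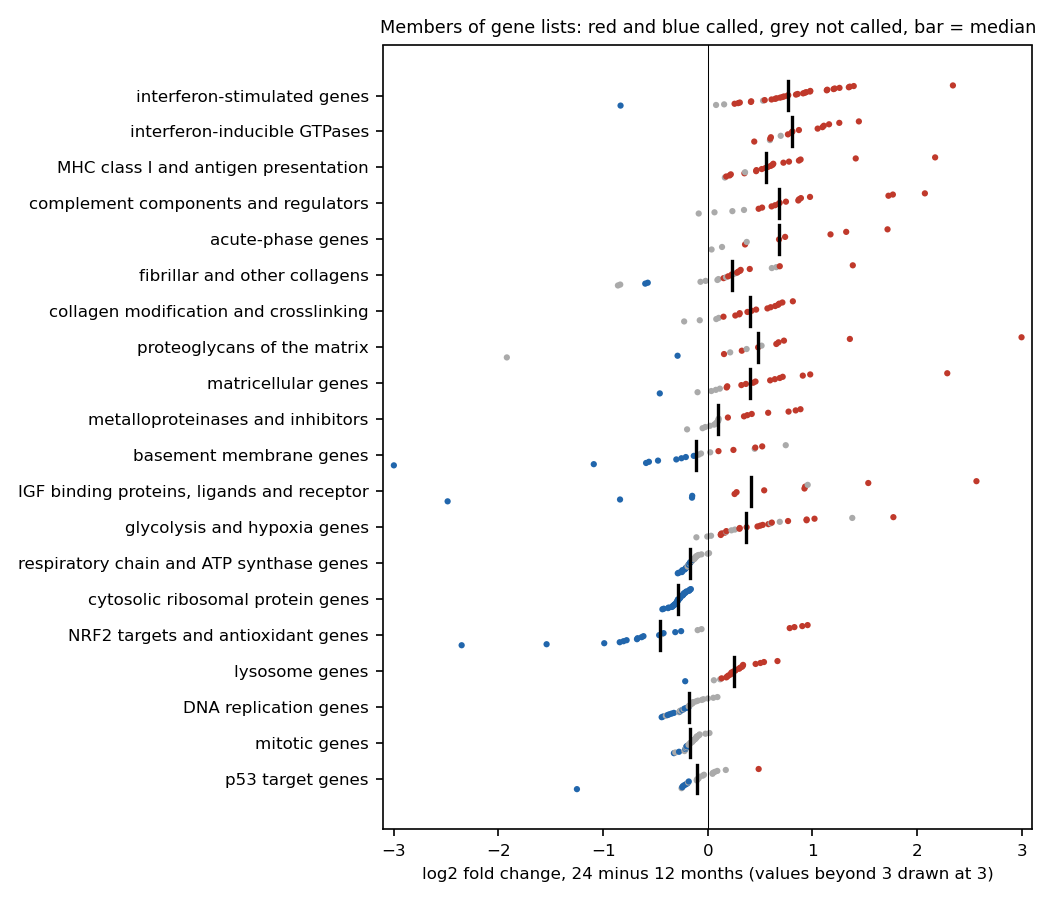
Log2 fold change (24 minus 12 months, horizontal axis) of every tested member of 20 gene lists, in red where called higher at 24 months, in blue where called lower and in grey where not called, with a bar at the list's median. The interferon, GTPase, MHC class I, complement and acute-phase lists have medians from 0.56 to 0.81, and the ribosomal, respiratory and NRF2 lists have medians from -0.46 to -0.17.

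Complement genes rose along the classical and the alternative pathway. Of 18 tested, 14 rose, 12 of them by over 1.5-fold, and 0 fell (median log2FC 0.68). C3, the component on which all pathways converge, stood at 1385 and 1191 CPM in the 12-month libraries and 2067 and 2258 CPM in the 24-month libraries (log2FC 0.75 ± 0.069, adjusted p = 1.94e-05). Cfb, the protease of the alternative pathway, stood at 4.47 and 5.08 CPM in the 12-month libraries and 19.8 and 20.6 CPM in the 24-month libraries (log2FC 2.08 ± 0.139, adjusted p = 3.31e-13). C4b stood at 118 and 99.4 CPM in the 12-month libraries and 199 and 198 CPM in the 24-month libraries (log2FC 0.87 ± 0.056, adjusted p = 9.92e-13). In all 3 the 24-month libraries were higher without overlap. The classical proteases C1s1 (log2FC 0.98 ± 0.084) and C1ra (0.89 ± 0.070) rose, as did Serping1 (0.87 ± 0.049), which blocks C1 proteases. Cd55, which protects host cells, was at 139 and 143 CPM and 129.9 and 136 CPM (log2FC -0.09 ± 0.048, adjusted p = 0.236). C1qa, C1qb and C1qc, which macrophages make, rose by 0.68, 0.69 and 0.61 at 8.31 to 10.2 mean CPM at 24 months, and the C1qc call was lost without replicate 2 of the 12-month group (adjusted p = 0.0856) and without replicate 1 of the 24-month group (log2FC 0.36, adjusted p = 0.203). The summed level of 18 macrophage markers was 308 and 289 CPM at 12 months and 302 and 286 CPM at 24 months. By single genes 5 of the 18 rose, Mrc1 (0.48 ± 0.089) and the C1q chains among them, and 1 fell (median log2FC 0.15). The complement list had a median log2FC of -0.41 for 12 against 3 months and 0.34 for 24 against 3 months. The NF-kappaB site letters GGGANTTCC, searched on both strands, were in a promoter of 0 of 10 complement genes and of 1.97% of all autosomal genes. With so rare a match, 10 genes are too few to show whether the list differs from all genes.

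Acute-phase genes, secreted mainly by the liver during inflammation, rose in 6 of 9 cases and fell in 0 (median log2FC 0.68). Saa3 stood at 50.8 and 36.9 CPM in the 12-month libraries and 131 and 157 CPM in the 24-month libraries (log2FC 1.72 ± 0.168, adjusted p = 0.00169). Hp, a haemoglobin scavenger, stood at 35.8 and 29.3 CPM in the 12-month libraries and 83.5 and 78.6 CPM in the 24-month libraries (log2FC 1.32 ± 0.088, adjusted p = 5.65e-11). Lbp, which carries lipopolysaccharide, stood at 44.9 and 36.9 CPM in the 12-month libraries and 88.2 and 95.6 CPM in the 24-month libraries (log2FC 1.17 ± 0.080, adjusted p = 1.16e-10). The 3 genes more than doubled. Ceruloplasmin (Cp, 0.74 ± 0.080), lipocalin 2 (Lcn2, 0.68 ± 0.184) and Steap4 (0.36 ± 0.079) made up the 6, and Ptx3 was at 2311 and 2219 CPM and 2360 and 2288 CPM (adjusted p = 0.586).

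Chemokines split. Of 17 tested, 6 rose and 4 fell (median log2FC 0.02). Ccl8, a monocyte attractant, stood at 5.16 and 4.68 CPM in the 12-month libraries and 14.6 and 16.9 CPM in the 24-month libraries (log2FC 1.68 ± 0.144, adjusted p = 9.55e-11). Cxcl12, which retains CXCR4-bearing cells, stood at 748 and 635 CPM in the 12-month libraries and 1221 and 1344 CPM in the 24-month libraries (log2FC 0.89 ± 0.066, adjusted p = 1.17e-06). Ccl11, the eosinophil attractant, stood at 27 and 26.8 CPM in the 12-month libraries and 14 and 11.8 CPM in the 24-month libraries (log2FC -1.06 ± 0.113, adjusted p = 1.36e-08). Ccl8 and Cxcl12 were thus higher at 24 months and Ccl11 lower, each without overlap. Cxcl14 rose (0.97 ± 0.066) and the neutrophil attractant Cxcl1 fell (-0.57 ± 0.079). Among IL-6 and IL-1 family genes 7 of 17 rose and 1 fell, including the alarmin Il33 (0.88 ± 0.083) and Il6 (0.48 ± 0.053), and the shared receptor chain Il6st rose by 0.28. The NF-kappaB subunits and feedback genes gave 2 rises and 2 falls among 17 (11.8% each, median log2FC -0.04). That is near the 10.7% and 8.03% of all genes. The adhesion genes Vcam1 (0.45 ± 0.040) and Icam1 (0.36 ± 0.048) rose, and Nfkbia (-0.26 ± 0.073) and Nfkb2 (-0.20 ± 0.058) fell, both of which DESeq2 did not call.

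Several of the most abundant collagen genes rose. Of 23 fibrillar and other collagens 11 rose and 2 fell (median log2FC 0.23). Col3a1, with the largest gain of CPM of any gene, was at 7251 and 6649 CPM in the 12-month libraries and 11000 and 11420 CPM in the 24-month libraries (log2FC 0.69 ± 0.038, adjusted p = 3.26e-15). Col1a1 was at 3727 and 3458 CPM in the 12-month libraries and 4285 and 4503 CPM in the 24-month libraries (log2FC 0.29 ± 0.040, adjusted p = 1.41e-06). Col14a1, a collagen that lies on the surface of fibrils, was at 160.2 and 134 CPM in the 12-month libraries and 347 and 421 CPM in the 24-month libraries (log2FC 1.39 ± 0.139, adjusted p = 0.00269). The Col1a1 rise was small, Col14a1 more than doubled, and no age overlapped in the 3 genes. Col15a1, which lies at basement membranes, fell (-0.57 ± 0.082), as did Col11a1 (-0.60 ± 0.146). At 3 months Col3a1 was at 13350 and 13580 CPM, above the 24-month values, and the collagen list had a median log2FC of -0.56 for 12 against 3 months and -0.28 for 24 against 3 months.

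Of 18 genes that modify and crosslink collagen, 14 rose and 0 fell (median log2FC 0.40). P4ha1, a prolyl hydroxylase subunit, had 509.7 and 501 CPM in the 12-month libraries and 776 and 847 CPM in the 24-month libraries (log2FC 0.68 ± 0.044, adjusted p = 1.67e-13). Plod2, a lysyl hydroxylase of crosslinks, had 459 and 458 CPM in the 12-month libraries and 701 and 733 CPM in the 24-month libraries (log2FC 0.65 ± 0.040, adjusted p = 5.49e-14). Loxl2, a lysyl oxidase, had 283 and 264 CPM in the 12-month libraries and 403 and 467 CPM in the 24-month libraries (log2FC 0.67 ± 0.055, adjusted p = 1.32e-08). All 3 rose by over 1.5-fold. Plod1 (0.71 ± 0.052), P4ha2 (0.81 ± 0.066), Loxl3 (0.46 ± 0.042), Lox (0.31 ± 0.044) and the procollagen protease Bmp1 (0.42 ± 0.046) rose as well. This list had a median log2FC of -0.23 for 12 against 3 months and 0.20 for 24 against 3 months.

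Proteoglycans of the matrix, which bind collagen fibrils or fill the space between them, rose in most cases. Of 13 tested, 8 rose and 1 fell (median log2FC 0.48), and 5 were called higher without replicate 2 of the 12-month group. Dcn had 1852 and 1703 CPM in the 12-month libraries and 2421 and 2544 CPM in the 24-month libraries (log2FC 0.48 ± 0.040, adjusted p = 4.44e-11). Lum had 228 and 223 CPM in the 12-month libraries and 371 and 377 CPM in the 24-month libraries (log2FC 0.73 ± 0.043, adjusted p = 1.49e-14). Vcan had 1083 and 1142 CPM in the 12-month libraries and 914 and 908 CPM in the 24-month libraries (log2FC -0.29 ± 0.041, adjusted p = 2.03e-06). Decorin and lumican were higher and versican lower at 24 months. Ogn (0.68 ± 0.048) and Podn (1.36 ± 0.171) rose too, and Acan had no count in either 12-month library and 0.281 and 0.095 CPM in the 24-month ones. The proteoglycan list had a median log2FC of -0.69 for 12 against 3 months and -0.01 for 24 against 3 months.

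Genes of the matricellular list rose in 13 of 18 cases and fell in 1 (median log2FC 0.40). Comp had 3.5 and 3.53 CPM in the 12-month libraries and 17 and 17.4 CPM in the 24-month libraries (log2FC 2.29 ± 0.150, adjusted p = 1.74e-13). Tnc had 685 and 708 CPM in the 12-month libraries and 1121 and 1053 CPM in the 24-month libraries (log2FC 0.64 ± 0.040, adjusted p = 5.05e-14). Fn1 had 3706 and 3599 CPM in the 12-month libraries and 4646 and 4758 CPM in the 24-month libraries (log2FC 0.36 ± 0.035, adjusted p = 9.31e-10). Comp, a cartilage matrix protein, rose from a low level, and tenascin C and fibronectin from high ones. The matricellular list had a median log2FC of -0.56 for 12 against 3 months and -0.17 for 24 against 3 months. Thbs2 (0.72 ± 0.044) and Ccn2 (0.19 ± 0.041), the connective tissue growth factor, rose, and Postn, a marker of activated fibroblasts, fell (-0.46 ± 0.050). Of 18 metalloproteinases and inhibitors 8 rose and 0 fell, led in CPM by the stromelysin Mmp3 (2999 and 2803 CPM at 12 months, 4881 and 5035 CPM at 24 months, log2FC 0.77 ± 0.038), with Timp3 at 0.89 ± 0.079. Of 17 elastic fibre and LTBP genes 9 rose, such as Emilin1 (0.57 ± 0.040) and Fbln5 (0.53 ± 0.045), and 5 fell, such as Ltbp4 (-0.60 ± 0.051) and Ltbp1 (-0.51 ± 0.057), which hold latent TGF-beta.

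Basement membrane genes went the other way more often. Of 18 tested, 4 rose and 9 fell (median log2FC -0.11), against 10.7% and 8.03% of all genes. Lama2 stood at 592 and 619.9 CPM in the 12-month libraries and 403 and 418 CPM in the 24-month libraries (log2FC -0.56 ± 0.040, adjusted p = 1.73e-12). Lamc1 stood at 1824 and 1817 CPM in the 12-month libraries and 1456 and 1502 CPM in the 24-month libraries (log2FC -0.30 ± 0.036, adjusted p = 1.22e-07). Hspg2, the heparan sulfate core protein perlecan, stood at 3659 and 3456 CPM in the 12-month libraries and 3059 and 3094 CPM in the 24-month libraries (log2FC -0.21 ± 0.037, adjusted p = 7.29e-05). The laminin and perlecan genes fell without overlap. Agrn rose (0.52 ± 0.053), as did Nid2 (0.25 ± 0.045). Col4a1 was at 3601 and 3623 CPM and 3660 and 3684 CPM (log2FC 0.02 ± 0.035, adjusted p = 0.709).

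Calls among genes of myofibroblast contraction and of TGF-beta signalling were mostly small rises. Of 17 contractile genes 6 rose and 1 fell (median log2FC 0.15), including the light chain kinase Mylk (1.07 ± 0.123) and Myl9 (0.50 ± 0.051). Acta2, the classic marker of myofibroblasts, was at 1087 and 1138 CPM and 1227 and 1221 CPM (log2FC 0.14 ± 0.041, adjusted p = 0.0149). Of 16 TGF-beta ligands, receptors and Smads 6 rose and 0 fell, none by over 1.5-fold, with Tgfb3 (0.43 ± 0.053) and the receptor Tgfbr1 (0.32 ± 0.051) among them.

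Insulin-like growth factor binding proteins changed in both directions. Of 12 genes of the IGF system 7 rose and 4 fell. Igfbp3 had 145 and 128 CPM in the 12-month libraries and 361 and 429 CPM in the 24-month libraries (log2FC 1.53 ± 0.112, adjusted p = 0.000197). Igfbp4 had 403 and 339 CPM in the 12-month libraries and 779 and 634 CPM in the 24-month libraries (log2FC 0.93 ± 0.137, adjusted p = 0.0118). Igfbp6 had 32.3 and 33.5 CPM in the 12-month libraries and 18.8 and 18.1 CPM in the 24-month libraries (log2FC -0.84 ± 0.092, adjusted p = 1.74e-08). Igfbp3 and Igfbp4 were thus higher and Igfbp6 lower at 24 months. Pappa, the protease that cleaves IGFBP4, rose (0.93 ± 0.078), Igfbp2 fell from 7.45 and 6.17 CPM to 0.938 and 1.47 CPM (log2FC -2.49 ± 0.449), and the receptor Igf1r fell slightly (-0.15 ± 0.044). Of 25 FGF, PDGF, EGF and related genes 8 rose and 5 fell, with rises of Pdgfd (1.02 ± 0.093), Fgf7 (0.66 ± 0.071) and the PDGF receptor Pdgfrb (0.32 ± 0.041) and a fall of Fgf10 (-1.06 ± 0.224). Among 20 Wnt ligands and secreted modulators 5 rose and 1 fell, and the rises were in modulators, including Dkk3 (1.29 ± 0.095), Sfrp2 (0.95 ± 0.106) and Sfrp1 (0.57 ± 0.046).

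Most glycolytic and hypoxia-inducible genes rose. Of 27 tested, 18 rose, 0 fell and 9 did not pass (median log2FC 0.37). Slc16a3, the lactate exporter MCT4, was at 30.5 and 27 CPM in the 12-month libraries and 85.9 and 110.2 CPM in the 24-month libraries (log2FC 1.77 ± 0.147, adjusted p = 0.000123). Pfkfb3, which raises glycolytic flux, was at 29.1 and 29.9 CPM in the 12-month libraries and 56.1 and 63.9 CPM in the 24-month libraries (log2FC 1.02 ± 0.073, adjusted p = 1.35e-12). Pdk1, which holds pyruvate back from mitochondria, was at 32 and 27.1 CPM in the 12-month libraries and 51.9 and 61.5 CPM in the 24-month libraries (log2FC 0.94 ± 0.085, adjusted p = 8.74e-10). In all 3 the 24-month libraries lay well above. Bnip3, a mitophagy receptor (0.95 ± 0.111), the glucose carrier Slc2a1 (0.53 ± 0.057), Eno1 (0.48 ± 0.043) and Ldha (0.31 ± 0.047) rose, and Vegfa, from another list, rose by 0.61 ± 0.065. Gapdh was at 172 and 193 CPM and 177 and 187 CPM (adjusted p = 0.97). The list had a median log2FC of 0.00 for 12 against 3 months and 0.47 for 24 against 3 months, when 20 genes rose. Ndufa4l2, another gene known to respond to hypoxia and also used as a pericyte marker, went from 32 and 22.8 CPM to 93 and 132 CPM (log2FC 2.05 ± 0.251, adjusted p = 0.00697), a call that was lost when only the 4 libraries compared were fitted (adjusted p = 0.0686).

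Most genes of the antioxidant list fell. Of 21 NRF2 targets and antioxidant genes 14 fell, 10 of them by over 1.5-fold, and 4 rose (median log2FC -0.46). Nqo1, a quinone reductase, was at 37.3 and 45 CPM in the 12-month libraries and 14.8 and 13.6 CPM in the 24-month libraries (log2FC -1.54 ± 0.098, adjusted p = 1.06e-13). Srxn1, which repairs peroxiredoxins, was at 181 and 191 CPM in the 12-month libraries and 91.3 and 95.8 CPM in the 24-month libraries (log2FC -0.99 ± 0.048, adjusted p = 2.41e-16). Gclm, a subunit of the enzyme that starts glutathione synthesis, was at 188 and 209 CPM in the 12-month libraries and 111 and 111 CPM in the 24-month libraries (log2FC -0.84 ± 0.051, adjusted p = 3.8e-14). Both 12-month libraries lay above both 24-month ones for each. The other subunit, Gclc (-0.63 ± 0.054), thioredoxin reductase Txnrd1 (-0.67 ± 0.043), haem oxygenase Hmox1 (-0.46 ± 0.046), catalase Cat (-0.68 ± 0.055) and glutathione transferases such as Gstm1 (-0.78 ± 0.049) fell with them. The 4 that rose were the metallothioneins Mt1 (0.83 ± 0.079) and Mt2 (0.95 ± 0.165) and the secreted enzymes Gpx3 (0.90 ± 0.045) and Sod3 (0.78 ± 0.054), of which metallothioneins respond to metals. Outside the list, the largest fall among well expressed genes was in Slc7a11, the cystine carrier that feeds glutathione synthesis and a member of the ER stress and ATF4 list. It was at 34.4 and 47.2 CPM in the 12-month libraries and 8.21 and 10.2 CPM in the 24-month libraries (log2FC -2.16 ± 0.150, adjusted p = 3.84e-08), with no overlap. Also in neither of those lists, Gsta3 (-0.98 ± 0.053), Gsto1 (-0.86 ± 0.081), the pentose phosphate enzyme Taldo1 (-0.89 ± 0.050) and biliverdin reductase Blvrb (-0.92 ± 0.085) were among the 15 largest falls.

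For Slc7a11 and Nqo1 the highest adult levels were at 12 months. Slc7a11 was at 8.36 and 10.4 CPM and Nqo1 at 14.2 and 12.3 CPM at 3 months, close to the 24-month values. The list had a median log2FC of 0.73 for 12 against 3 months, with 16 rises (12.9% of all genes rose), and of 0.18 for 24 against 3 months, with 8 rises (8.76% of all genes). The iron storage chains fell among the most abundant transcripts, with Fth1 at 2423 and 2427 CPM and 1865 and 1833 CPM (log2FC -0.39 ± 0.039) and Ftl1 at 3057 and 3198 CPM and 2241 and 2417 CPM (log2FC -0.42 ± 0.042). Both ferritin genes have processed copies elsewhere, so their values are uncertain.

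The antioxidant response element core TGACNNNGC was a motif chosen after the values were seen and searched on both strands. It was in a promoter of 6 of 14 genes of the list (42.9%) and of 14.1% of autosomal genes. Gclm, on the plus strand of chromosome 3 (chr3:122245307-122245606, GRCm38.p6, RefSeq), has a single match, 134 bases before the start and on the opposite strand. It is shown because Gclm fell and carries the core, in capitals:
Gclm: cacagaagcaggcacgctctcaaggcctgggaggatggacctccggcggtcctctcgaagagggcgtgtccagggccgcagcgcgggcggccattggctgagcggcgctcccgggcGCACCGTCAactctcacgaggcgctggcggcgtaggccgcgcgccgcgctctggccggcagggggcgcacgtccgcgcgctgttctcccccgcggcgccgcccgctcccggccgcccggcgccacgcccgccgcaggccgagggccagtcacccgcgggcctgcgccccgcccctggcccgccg

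**Figure D4:**
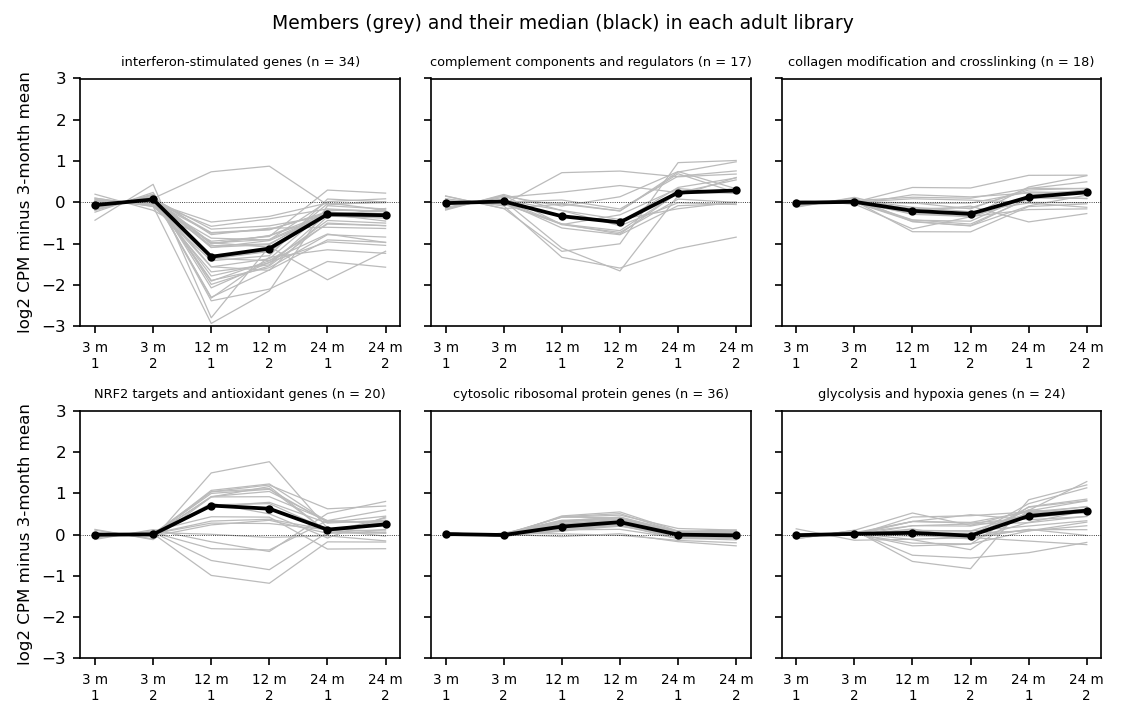
Log2 CPM of list members relative to their 3-month mean (vertical axis) in each adult library (horizontal axis), for members with a mean log2 CPM of at least 1, grey lines for genes and black for the median of each library. The interferon median was at -1.32 and -1.12 in the 12-month libraries and at -0.29 and -0.31 in the 24-month ones, and the NRF2 median at 0.70 and 0.63 and then at 0.12 and 0.25.

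Genes of the translation machinery fell by a small and even amount. All 36 cytosolic ribosomal protein genes fell (8.03% of all genes did), with log2FC between -0.43 and -0.16 and a median of -0.28. Rps2 stood at 1969 and 2071 CPM in the 12-month libraries and 1521 and 1472 CPM in the 24-month libraries (log2FC -0.43 ± 0.039, adjusted p = 2.93e-10). Rplp0 stood at 1808 and 1870 CPM in the 12-month libraries and 1494 and 1454 CPM in the 24-month libraries (log2FC -0.32 ± 0.038, adjusted p = 8.61e-08). Eef1a1, the elongation factor that had the largest loss of CPM, stood at 7167 and 7598 CPM in the 12-month libraries and 6468 and 6375 CPM in the 24-month libraries (log2FC -0.20 ± 0.036, adjusted p = 7.55e-05). Each fell by under 1.5-fold with no overlap between ages. Of 34 nuclear genes of the respiratory chain and ATP synthase, 17 fell and 0 rose (median log2FC -0.17), for example Atp5b (-0.28 ± 0.040) and Ndufv1 (-0.29 ± 0.057). DESeq2 called 8 of the 34 lower, and 6 were called lower without replicate 2 of the 12-month group.

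Both lists hold short genes, and gene length moved with the change. The median exonic length was 1918.5 bases for the ribosomal and 1940 bases for the respiratory genes against 3993 for all. Without both lists the median log2FC was still -0.17 for genes under 500 bases and -0.14 for those of 500 to 1000 bases. With a correction for length chosen after seeing the data, 32 of 36 ribosomal genes (median log2FC -0.21) and 11 of 34 respiratory genes (median log2FC -0.09) fell. Ribosomal protein genes have many processed copies in the genome, and how reads were assigned among them is not stated. The ribosomal list had a median log2FC of 0.24 for 12 against 3 months and -0.02 for 24 against 3 months.

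**Figure D5:**
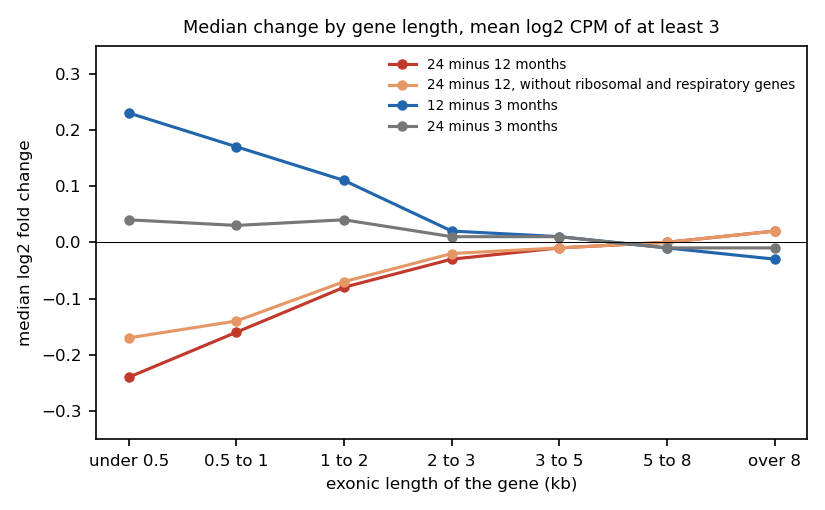
Median log2 fold change (vertical axis) of autosomal genes with a mean log2 CPM of at least 3, by exonic length in kilobases (horizontal axis), for 24 minus 12 months with and without the ribosomal and respiratory lists, 12 minus 3 months and 24 minus 3 months. From 12 to 24 months the median goes from -0.24 in the shortest genes to 0.02 in the longest, and from 3 to 12 months from 0.23 to -0.03.

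A minority of cell division genes fell, and none rose. Of 29 DNA replication genes 11 fell (37.9%) and 0 rose (median log2FC -0.18). Of 30 mitotic genes 6 fell (20%) and 0 rose (median log2FC -0.17). Among all genes 8.03% fell and 10.7% rose. Rrm2, a ribonucleotide reductase subunit, had 105 and 106 CPM in the 12-month libraries and 81.5 and 73.7 CPM in the 24-month libraries (log2FC -0.44 ± 0.057, adjusted p = 5.48e-07). Mcm5, of the replicative helicase, had 62.4 and 64.8 CPM in the 12-month libraries and 53.2 and 44.4 CPM in the 24-month libraries (log2FC -0.38 ± 0.068, adjusted p = 6.87e-05). Mki67 had 162 and 176 CPM in the 12-month libraries and 156 and 138 CPM in the 24-month libraries (log2FC -0.20 ± 0.060, adjusted p = 0.0227), and this call was lost without replicate 2 of either age (adjusted p = 0.248 and 0.262). Replication and mitotic genes were thus lower by at most 0.44 on the log2 scale. DESeq2 called 5 replication and 2 mitotic genes lower, and leaving out 1 library gave 3 to 15 and 1 to 11 genes. Cyclin D1, which drives entry into the cycle, fell further, with Ccnd1 at 160.1 and 192 CPM and 72.7 and 68.5 CPM (log2FC -1.32 ± 0.078, adjusted p = 2.49e-08) and at 61.9 and 54.7 CPM at 3 months. The chromatin proteins Hmga1 (-1.23 ± 0.075) and Hmga2 (-0.80 ± 0.135), typical of growing cells, fell as well, although Hmga1 has a near-identical copy.

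The elements of mitotic promoters, each counted on its own, were frequent in the list. The cell cycle homology region core TTTGAA was in 20 of 26 mitotic genes (76.9%) and in 19.9% of autosomal genes, and CCAAT in 21 of 26 (80.8%) and 41% respectively, on either strand. Prc1, which bundles spindle microtubules and had the smallest p among the mitotic genes (76.8 and 83.7 CPM at 12 months, 66.6 and 61.9 CPM at 24 months, log2FC -0.32 ± 0.060), lies on the plus strand of chromosome 7 (chr7:80294201-80294500, GRCm38.p6, RefSeq, 1 of 2 promoters in the table). Its TTTGAA begins 5 bases and its CCAAT 37 bases before the start, shown in capitals:
Prc1: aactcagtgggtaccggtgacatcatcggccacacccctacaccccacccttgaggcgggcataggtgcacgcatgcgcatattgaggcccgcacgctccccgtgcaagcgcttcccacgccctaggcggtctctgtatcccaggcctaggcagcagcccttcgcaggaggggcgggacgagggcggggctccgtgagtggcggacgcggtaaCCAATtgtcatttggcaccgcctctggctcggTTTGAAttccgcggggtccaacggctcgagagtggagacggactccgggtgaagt

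The kinase inhibitor genes used to mark senescence did not pass the test between these ages. Cdkn1a was at 560.5 and 588 CPM in the 12-month libraries and 531 and 551 CPM in the 24-month libraries (log2FC -0.09 ± 0.041, adjusted p = 0.157). Cdkn2a was at 1.66 and 2.14 CPM in the 12-month libraries and 2.63 and 3.18 CPM in the 24-month libraries (log2FC 0.60 ± 0.279, adjusted p = 0.144). Cdkn2b was at 8.42 and 8.51 CPM in the 12-month libraries and 9.15 and 9.55 CPM in the 24-month libraries (log2FC 0.14 ± 0.139, adjusted p = 0.55). The ages did not overlap in any of the 3, with Cdkn1a lower and the others higher at 24 months, but among all tested genes 27.7% did not overlap in the first direction and 28.1% in the second. Nr4a3, the nuclear receptor gene that the study manipulates elsewhere, was at 3.72 and 4.88 CPM and 3.52 and 3.33 CPM (log2FC -0.34 ± 0.224, adjusted p = 0.34). Of 10 CDK inhibitor and Rb family genes Cdkn1b (0.35 ± 0.062) and Cdkn2c (0.33 ± 0.071) rose. Of 22 p53 target genes 7 fell and 1 rose, with Perp (-1.25 ± 0.163) and Ccng1 (-0.24 ± 0.041) lower and Btg2 (0.49 ± 0.045) higher. Of 26 senescence secretory genes beyond chemokines 15 rose and 3 fell (median log2FC 0.28). Besides Mmp3, Igfbp3 and Il6 above, these included Hgf (0.58 ± 0.139), Tnfrsf11b (0.56 ± 0.079) and the cathepsin gene Ctsb (0.33 ± 0.040), and Gdf15, a stress cytokine, fell (-0.76 ± 0.128).

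Markers of other cell types were read as summed levels and counts of calls, against 18.8% called among all genes. Of 13 endothelial markers 1 rose (Tek, 0.29 ± 0.055) and 0 fell, with sums of 183 and 162 CPM at 12 months and 167 and 192 CPM at 24 months. Cardiomyocyte markers summed to 50.7 and 34.4 CPM and to 33.3 and 34.7 CPM, and of 16 only Tnnt2 was called (-0.54 ± 0.140), a call lost without replicate 1 of the 12-month group (adjusted p = 0.174) or replicate 2 of the 24-month group (adjusted p = 0.0683). Pericyte and smooth muscle markers summed to 146 and 126 CPM at 12 months and 204 and 246 CPM at 24 months. Of 7 tested, Ndufa4l2, Mcam (1.39 ± 0.173) and Abcc9 (0.92 ± 0.238, adjusted p = 0.0769 without replicate 2 of the 12-month group) rose, Cspg4 fell (-0.82 ± 0.169), and Rgs5 was at 1.49 and 1.39 and 1.03 and 1.19 CPM (adjusted p = 0.482). Lymphocyte markers summed to at most 0.802 CPM, with Cd3e, Cd79b, Gzma, Ms4a1 and Nkg7 at 0 in all 4 libraries, and neutrophil and mast cell markers to 4.22 and 4.16 CPM at 12 months and 9.49 and 12.7 CPM at 24 months, mostly from Kit (1.65 ± 0.230). Of 18 macrophage markers 5 rose, 3 of them C1q chains, and Lyz2 fell (-0.19 ± 0.059). Epicardial and mesothelial markers, of which Aldh1a2 rose (0.48 ± 0.041) and Tbx18 fell (-0.33 ± 0.059) among 12, summed to 590 and 548 CPM at 12 months and 737 and 726 CPM at 24 months. Of 7 fat cell markers only Fabp4 had enough reads to be tested. Fabp4 rose from 25.8 and 22.9 CPM to 32.5 and 31.7 CPM (0.40 ± 0.088), a call lost without replicate 2 of the 12-month group (log2FC 0.32). The fat cell markers Adipoq, Cidec, Cfd and Lep were at 0 in all 4 libraries, and of 5 Schwann cell and neuronal markers Ncam1 rose (0.58 ± 0.088). The part of these cells in the results above was not tested. Among 18 fibroblast markers 6 rose and 4 fell, the falls including Pi16 (-0.47 ± 0.124) and Ddr2 (-0.30 ± 0.039), and Cd34, which resting fibroblasts and endothelial cells carry, fell from 162 and 162 CPM to 87.6 and 80.2 CPM (log2FC -0.95 ± 0.052).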

How the data were processed

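The authors deposited whole-number read counts per gene, which are raw counts of 56691 genes in 8 fibroblast libraries of 17283764 to 22311330 counts. Trimmomatic 0.36, featureCounts of Subread 1.5.1, SAMtools and build mm10 are named in the submitters' processing notes. The aligner, annotation and strand setting are not given in the sources used here, and the labels state poly(A) RNA in one field and an rRNA depletion kit in another. Since gene positions in the file differ from the GRCm38 table used for promoters, genes were joined by symbol. FPKM columns were not used. Values of some genes are not reported here.

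All 8 libraries (neonatal, 3, 12 and 24 months) were fitted together in R 4.3.3 with edgeR 4.0.16: filterByExpr, TMM factors, 1 coefficient per age, robust quasi-likelihood test, Benjamini-Hochberg over all tested genes, call at an adjusted p under 0.05. CPM of single genes other than Xist are TMM-scaled, while Xist and all summed levels were scaled by total counts alone. The standard error is the size of the log2FC over the root of F. Named genes were the 15 largest rises and falls (called, mean log2 CPM of at least 3, no overlap, no predicted gene), the 8 largest gains and losses of CPM, up to 4 called members with the smallest p per list, Nr4a3, Cdkn1a, Cdkn2a, Cdkn2b and Mki67. Other list members named in the text were chosen after their values were seen. The comparison and the gene lists were chosen with earlier results of these data known. Alternatives were RLE factors, DESeq2 1.42.0, other filters, other sets of libraries or genes, a replicate block, each library left out and a length correction added after the data were seen. The script was tested on simulated data. Replicates of a group differed by more than counting noise (chi-square per degree of freedom 2.32 to 2.74).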

Additional observations from a re-analysis of the deposited data

How the results depend on the processing

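No call among the 2985 changed direction under the other scalings, filters, tests and sets of libraries, and 1 did under the length correction. RLE factors gave 2986 calls, no filter 2845, a stricter filter 3046, the 4 libraries alone 2869, autosomal genes alone 2977 and DESeq2 2038, of which 706 were lower. Leaving out 1 library gave 1793 to 2495 calls, 1110 to 1449 higher and 683 to 1046 lower. Over these fits, 5 to 8 proteoglycan genes and 9 to 12 ER stress and ATF4 genes were called higher, and 6 to 15 respiratory, 3 to 15 replication and 1 to 11 mitotic genes lower. DESeq2 called 8, 5 and 2 genes of the last 3 lists lower, and the length correction, added after seeing the data, 11 respiratory genes. The replicate numbers were not used as pairs in the main fit. The correlation of same-numbered deviations between 12 and 24 months was -0.0779 over 9436 genes. Across all pairs of ages it ran from -0.159 (3 and 12 months) to 0.121 (3 and 24 months). These values cannot settle whether same-numbered libraries were handled together. A replicate block gave 2833 calls, 2816 of them shared. Of 188 named genes called, 170 kept call and direction under every setting, 18 lost the call in at least 1 and 0 reversed. With 2 libraries per age, small changes of low genes were not detectable, and where an age is left with 1 library, that library is assumed to vary like the others.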

Other observations

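Lysosomal genes rose together at 24 months. Of 22 tested, 19 rose and 1 fell (median log2FC 0.25). Ctsh, a lysosomal protease, was at 63.7 and 63.4 CPM in the 12-month libraries and 86.8 and 93.6 CPM in the 24-month libraries (log2FC 0.50 ± 0.058, adjusted p = 4.95e-08). Npc2, which moves cholesterol out of the lysosome, was at 322 and 317 CPM in the 12-month libraries and 424 and 453 CPM in the 24-month libraries (log2FC 0.46 ± 0.045, adjusted p = 2.44e-09). Gusb, the one that fell, was at 214 and 219 CPM in the 12-month libraries and 182 and 192 CPM in the 24-month libraries (log2FC -0.21 ± 0.043, adjusted p = 0.000363). The rises were small, and Neu1 (0.67 ± 0.086) exceeded 1.5-fold. Of 21 cholesterol synthesis genes 9 rose and 0 fell, none by over 1.5-fold, including Sc5d (0.46 ± 0.053) and Insig1 (0.31 ± 0.054). Of 19 lipid genes 6 rose and 3 fell, with Apoe, a lipid carrier, at 0.77 ± 0.061 and Fabp5 at 0.60 ± 0.062.

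Immediate early genes of the AP-1 and Egr families rose in 12 of 21 cases and fell in 2 (median log2FC 0.25). Fos was at 37.6 and 42.9 CPM in the 12-month libraries and 67.7 and 60.2 CPM in the 24-month libraries (log2FC 0.66 ± 0.071, adjusted p = 1.72e-08). Egr1 was at 386 and 396 CPM in the 12-month libraries and 519.7 and 495 CPM in the 24-month libraries (log2FC 0.38 ± 0.040, adjusted p = 1.33e-08). Fosl1 was at 12 and 12.4 CPM in the 12-month libraries and 7.32 and 7.6 CPM in the 24-month libraries (log2FC -0.71 ± 0.138, adjusted p = 0.000236). Fos and Egr1 were higher and Fosl1 lower at 24 months, all without overlap. Of 25 ER stress and ATF4 target genes 16 rose and 3 fell, with the amino acid enzyme Asns (0.47 ± 0.062) and the kinase-like Trib3 (0.72 ± 0.185) higher and Psat1 (-0.60 ± 0.065) and Slc7a11 lower, and 9 rose without replicate 2 of the 24-month group. The lists that follow stand beside 10.7% of all genes that rose and 8.03% that fell. Of 14 heat shock genes 2 rose (14.3%) and 3 fell (21.4%), the falls including the mitochondrial chaperone Hspd1 (-0.36 ± 0.047). Of 16 circadian clock genes 1 rose, Bhlhe40 (0.61 ± 0.119), a call lost without replicate 2 of the 12-month group (adjusted p = 0.0688). Of 15 BMP and Id genes 5 rose and 2 fell, of 23 fetal growth and imprinted genes 4 rose and 4 fell, and of 13 prostaglandin genes 3 rose and 1 fell, with the prostacyclin receptor Ptgir lower (-0.64 ± 0.066).

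Some genes outside the lists were chosen here after their values were seen. Gucy1b1, which makes the other subunit of the nitric oxide receptor, rose with Gucy1a1 (log2FC 1.25 ± 0.073, adjusted p = 4.83e-14). The mechanosensitive channel gene Piezo2 (1.34 ± 0.130) and the collagen-binding integrin gene Itga11 (1.40 ± 0.107) rose, and caveolin 1 (Cav1, -0.65 ± 0.061) and the water channel Aqp1 (-1.17 ± 0.112) fell. Of 548 X-linked and 8 Y-linked genes tested, 118 and 5 were called, beside 2985 of 15895 autosomal genes (18.8%).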
